A study of Mus musculus with 11 samples.

Results

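Fatty acid oxidation and ketogenesis were followed in whole colon through 33 genes, taken as the rows of a table of 22836 genes whose Ensembl identifier belongs to a listed symbol, and all 33 were found. By role, 20 serve mitochondrial oxidation and 7 serve peroxisomes, and the other 6, kept apart although BDH1 and PDK4 are mitochondrial enzymes too, are the regulators Ppara, Ppargc1a and Pdk4, the ketone body gene Bdh1 and the fatty acid binding protein genes Fabp1 and Fabp2. Crat and Eci2, whose products are also found in peroxisomes, were counted as mitochondrial. RNA was sequenced from 3 control colons of genotype Tfam fl/fl (replicates 1, 2 and 3) and from 8 colons of genotype Tfam fl/fl Cd4 Cre, of which 3 were non-transferred (replicates 1, 3 and 4) and 5 transferred, that is, from mice given CD4 T cell therapy (replicates 1 to 5). All 11 libraries carry the floxed Tfam allele, and Cd4 Cre removes Tfam, the gene of a mitochondrial transcription factor, from T cells of both the CD4 and the CD8 lineage, not from the epithelium. The donor cells came from young Ly5.1 mice with intact Tfam, and the labels give no age for the animals sampled. The labels number the libraries and name no animal, the study's methods describe its samples as biological, and each p-value reflects the spread among these libraries only. Transferred replicate 5 has that number in its description and in the header of its column, but its title calls it sample 6.

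In mitochondrial oxidation a fatty acid is carried across the inner membrane as a carnitine ester and is shortened in a repeated spiral of dehydrogenation, hydration, a second dehydrogenation and thiolysis, and its electrons pass through the electron transfer flavoprotein to the respiratory chain. Peroxisomes run a parallel spiral on very long and branched chains and pass the shortened products on to mitochondria. In the colon the surface epithelium is known to burn the butyrate made by bacteria and to turn part of the acetyl-CoA into ketone bodies, and PPARA with its coactivator PGC1A (Ppargc1a) is a known activator of many of these genes.

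Per length, the members spanned a wide range. In control colon Fabp2 was the most abundant with 14209 ± 3397 normalized counts per kilobase of its canonical transcript (SD, n = 3), followed by Hadh with 4475 ± 282, Acads with 3759.6 ± 596 and Slc25a20 with 3457 ± 256, and the last pair of these lay within 1 SD of each other. At the other end stood Ppara with 32.9 ± 6.12 and Ppargc1a with 26.5 ± 4.85 on the same scale, and Fabp1 lay lower still.

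The libraries held 18214741 to 19178986 reads in genes. limma was run on log2(normalized count + 1), which makes the change of a weakly expressed gene look smaller than it was, for the 16781 genes whose mean over the libraries reached 10. Fabp1 stayed below that mean, so 32 of the 33 members were tested, and a member is said to have risen or fallen where its p, adjusted over all genes tested, was under 0.05. Tfam itself, which the deletion removes from T cells alone, had 1083, 977 and 1018 normalized counts in the control libraries, 1054, 1102 and 1040.3 in the non-transferred and 865, 1090.5, 1045, 1017 and 1086 in the transferred libraries, and its log2 fold change in non-transferred against control colon was 0.06 ± 0.10 (SE, adjusted p = 0.678). In whole colon that level does not check the deletion. The epithelial gene Epcam had 27865 to 44779 normalized counts in all 11 libraries. The small intestinal gene Lct stayed at or below 5.51. Transferred replicate 5 had more of the small intestinal transcripts Apoa1 (107 against at most 34.3) and Apoa4 (67.9 against at most 38.3) than the remaining 10 libraries. The median log2 ratio to the control mean of 7 small intestinal markers was 1.51 there and at most 0.54 in the other libraries. The summed level of 8 such markers was nevertheless highest in a control library, at 4502 against at most 4352 in transferred libraries.

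Most genes of fatty acid oxidation were lower in non-transferred than in control colon. Of 32 members tested, 22 fell (68.8%) and 1, Acadl, rose, against 22.9% of all 16781 genes that fell and 22.7% that rose. The median log2 fold change of the members was -0.69, where that of all genes tested was 0.02. In 27 members every non-transferred library lay below every control library, which held for 27.9% of all genes. RNA of whole tissue was measured, and fewer cells of a type cannot be told apart from less RNA per cell.

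**Figure D1:**
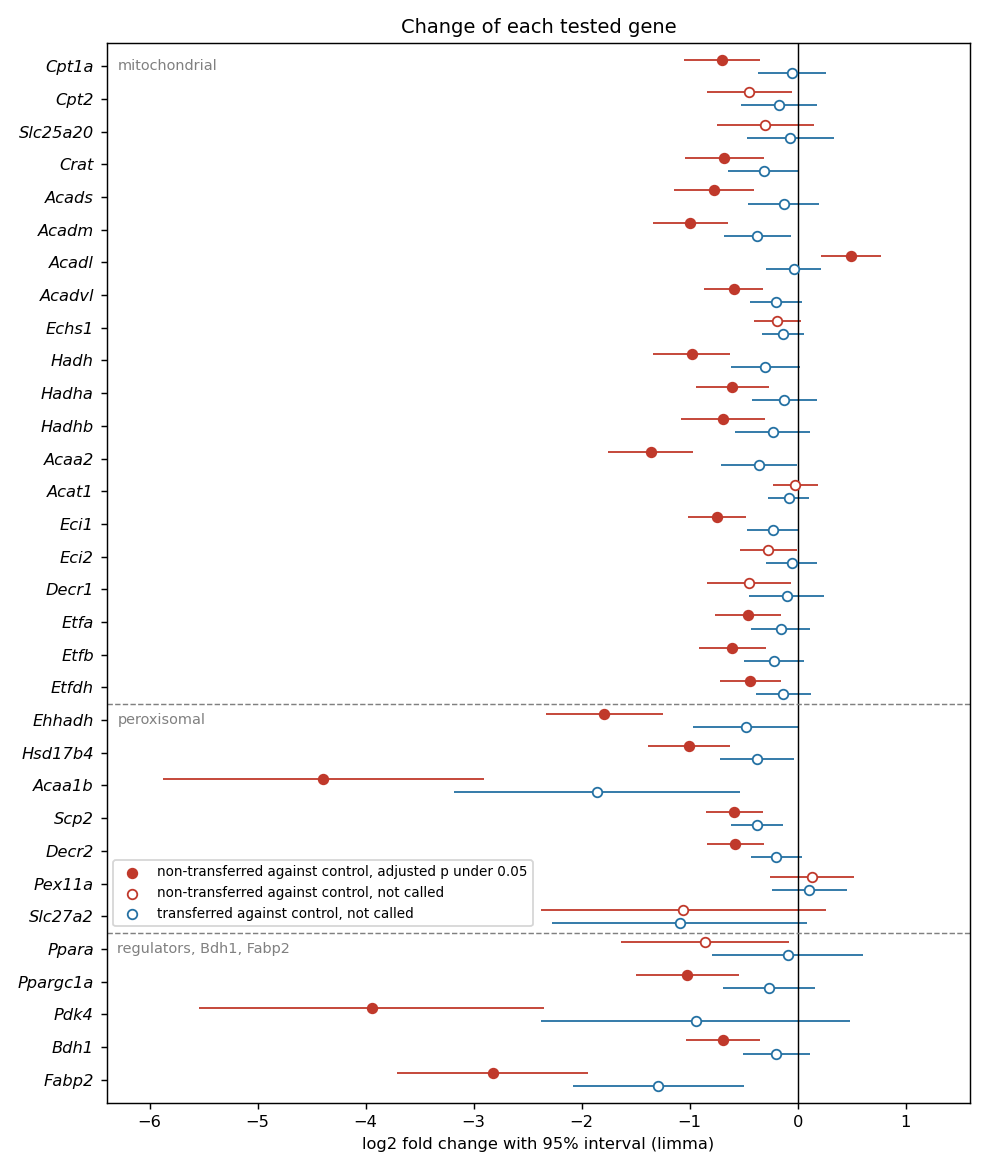
Log2 fold changes (x axis) of the 32 tested members (y axis, grouped by mitochondrial, peroxisomal and other genes) in non-transferred (red) and transferred (blue) against control colon, with 95% intervals from limma. Filled points are called at an adjusted p under 0.05. In red, 22 members lie to the left of 0 with a filled point and Acadl alone to the right, and no blue point is filled.

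The stretches of genome before the start of some members are shown as a description. PPARA, a known activator of many of these genes, acts through a short repeated motif. Whether PPARA had a part in the changes was not tested. The half-site AGGTCA, which PPARA, HNF4A and other nuclear receptors bind, was searched on both strands from 250 bases before to 50 bases after the start of the canonical transcript in GRCm39. It was present in 6 of 33 member windows (18.2%) and in 13.5% of the windows of 14345 tested protein-coding genes. Capitals mark the half-site as it reads on the gene's strand (in reverse complement in Cpt1a), or, in Echs1, a pair of half-sites 1 base apart with up to 2 mismatches, a search added after the first matches were seen. The first 5 lines give the 130 bases before the start of each tested member with a half-site, and the last 2 those of the member that rose and of the member with the largest fall, which hold none.
Hadha, chr5:30360182-30360311, minus strand: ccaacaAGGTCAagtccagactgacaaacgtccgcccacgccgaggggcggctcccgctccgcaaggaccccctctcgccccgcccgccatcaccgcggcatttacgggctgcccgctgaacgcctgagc
Scp2, chr4:107975748-107975877, minus strand: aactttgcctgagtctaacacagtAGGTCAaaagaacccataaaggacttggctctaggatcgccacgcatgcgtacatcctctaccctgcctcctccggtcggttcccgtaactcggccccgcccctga
Acadvl, chr11:69906270-69906399, minus strand: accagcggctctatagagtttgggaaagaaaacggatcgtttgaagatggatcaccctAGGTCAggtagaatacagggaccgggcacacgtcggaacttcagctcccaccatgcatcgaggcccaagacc
Cpt1a, chr19:3373141-3373270, plus strand: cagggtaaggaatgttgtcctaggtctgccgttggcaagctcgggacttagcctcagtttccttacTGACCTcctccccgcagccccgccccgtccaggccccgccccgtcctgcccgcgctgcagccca
Echs1, chr7:139696390-139696519, minus strand: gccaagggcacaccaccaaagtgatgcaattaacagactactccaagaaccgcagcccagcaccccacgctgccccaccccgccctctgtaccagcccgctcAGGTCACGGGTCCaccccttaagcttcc
Acadl, chr1:66902633-66902762, minus strand: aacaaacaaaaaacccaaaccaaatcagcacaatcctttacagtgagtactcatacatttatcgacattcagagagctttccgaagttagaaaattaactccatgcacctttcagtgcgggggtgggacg
Acaa1b, chr9:118986162-118986291, minus strand: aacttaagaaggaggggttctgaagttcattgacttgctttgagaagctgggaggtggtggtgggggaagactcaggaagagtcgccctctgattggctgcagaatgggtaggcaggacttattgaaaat
Of the members with a half-site, Hadha, Scp2, Acadvl and Cpt1a fell, and Echs1, the only tested member with the pair, did not pass the test. Over all 32 tested members, with or without a half-site, 22 fell (68.8%). The sixth half-site was in Fabp1, also as such a pair, which 3.14% of all windows hold. No member window held the exact pair (direct repeat 1) or the half-site preceded by TCA that estrogen-related receptors bind, found in 0.0418% and 0.356% of all windows. These matches are letters and not bound sites.

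Among the genes of the carnitine shuttle, Cpt1a and Crat fell. Cpt1a (ENSMUSG00000024900, chromosome 19 from 3371853 to 3437996 of GRCm39), which encodes the rate-controlling enzyme that makes the carnitine ester, had 4292, 4727 and 5311 normalized counts in the control libraries, 3842, 2538 and 2570.1 in the non-transferred and 4089, 4848, 4167, 4946 and 5052 in the transferred libraries. Its log2 fold change was -0.70 ± 0.16 (SE, adjusted p = 0.00428), with no overlap between control and non-transferred libraries, although non-transferred replicate 1 stood nearer to the controls than the remaining pair. Crat, the carnitine acetyltransferase of mitochondria and peroxisomes, had 1402, 1584 and 2101 normalized counts in the control libraries, 1143, 1004 and 989.9 in the non-transferred and 1306, 1299.8, 1174, 1245 and 1763 in the transferred libraries, a log2 fold change of -0.68 ± 0.17 (SE, adjusted p = 0.00672). The inner membrane transferase gene Cpt2 and the carrier gene Slc25a20 were not called, at -0.45 (95% interval -0.84 to -0.06) and -0.30 (-0.75 to 0.15). Their non-transferred libraries nevertheless all lay below their control libraries, at 1720.0, 1464 and 1823 against 1899.9, 2227 and 2759.6 normalized counts for Cpt2 and 5829, 3714 and 5765 against 5939.9, 5865 and 6689 for Slc25a20.

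The acyl-CoA dehydrogenases, which open each turn of the spiral and differ in the chain length they prefer, moved in opposite directions. The short-chain gene Acads had 6214, 6586 and 8303 normalized counts in the control libraries, 4424, 3629 and 4216 in the non-transferred and 5385, 6127, 6196, 6003 and 8609 in the transferred libraries, and fell by 0.78 on the log2 scale (adjusted p = 0.00321). The medium-chain gene Acadm (ENSMUSG00000062908, chromosome 3 from 153627989 to 153650317) had 3014, 3733 and 3606 normalized counts in the control libraries, 1988, 1521 and 1699.5 in the non-transferred and 2181, 3169.9, 2444, 2469 and 3149 in the transferred libraries, a log2 fold change of -0.99 ± 0.16 (SE, adjusted p = 0.000514), so that the highest non-transferred library lay below the lowest control library. Acadvl, for very long chains, had 4930.2, 5155 and 5729 normalized counts in the control libraries, 3546, 3168 and 3791 in the non-transferred and 4151, 4971, 4389.7, 4109 and 5419.9 in the transferred libraries, and its log2 fold change was -0.59 ± 0.12 (SE, adjusted p = 0.00261). By contrast the long-chain gene Acadl (ENSMUSG00000026003, chromosome 1 from 66868267 to 66902633) had 2874, 3276 and 3410.1 normalized counts in the control libraries, 4249.6, 4271 and 4929 in the non-transferred and 2749, 3016, 2770.2, 3314 and 3731 in the transferred libraries. All 3 non-transferred libraries were above all control libraries. The log2 fold change was 0.49 ± 0.13 (SE, adjusted p = 0.00857), and Acadl was called higher under all alternatives but one, a threshold of 0.6 on the size of the log2 fold change.

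In the later steps of the spiral, 4 of 6 genes fell. Acaa2, the mitochondrial thiolase for medium and long chains, had the largest fall among mitochondrial members, with 5013, 5479 and 5922 normalized counts in the control libraries, 2542, 1617 and 2324 in the non-transferred and 3475, 4634, 4136, 3948 and 5331 in the transferred libraries and a log2 fold change of -1.36 ± 0.18 (SE, adjusted p = 0.000167). Hadh, the hydroxyacyl-CoA dehydrogenase for short chains, had 7532, 7948 and 8537 normalized counts in the control libraries, 4790.0, 3324 and 4164 in the non-transferred and 5586, 7377, 6047, 5814 and 7968 in the transferred libraries, and its log2 fold change was -0.98 ± 0.16 (SE, adjusted p = 0.000616). The control and non-transferred libraries of both genes were well apart.

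Hadha and Hadhb encode the alpha and beta subunits of the trifunctional protein, which joins the later steps for long chains. Hadha fell from a control mean of 7894 ± 1351 (SD, n = 3) to 5156 ± 498 (SD, n = 3) normalized counts and Hadhb from 1443 ± 142 (SD, n = 3) to 895 ± 116 (SD, n = 3), with log2 fold changes of -0.61 ± 0.15 (SE, adjusted p = 0.00777) and -0.69 ± 0.18 (SE, adjusted p = 0.00792). They lie head to head on chromosome 5 and overlap from 30359204 to 30360187, and without the strand setting of the counter the reads of that stretch cannot be assigned.

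The hydratase gene Echs1 and the acetyl-CoA acetyltransferase gene Acat1 were not called. Echs1 had 2709, 3017 and 3037 normalized counts in the control libraries, 2663, 2333 and 2691 in the non-transferred and 2411, 2769.5, 2579, 2621 and 2939 in the transferred libraries, a log2 fold change of -0.19 with a 95% interval of -0.41 to 0.03. Acat1, whose product works both in the last thiolysis and in ketone body metabolism, had 2493, 2508 and 2545 normalized counts in the control libraries, 2438, 2613 and 2392 in the non-transferred and 2340.2, 2353, 2109, 2383 and 2736 in the transferred libraries. Its log2 fold change was -0.02 with a 95% interval of -0.23 to 0.19, and the estimate of each of the 22 members that fell lies below that interval.

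Of the auxiliary enzymes that prepare unsaturated chains, the isomerase gene Eci1 fell, from 1063, 1142 and 1279 normalized counts in the control libraries to 717, 635 and 725, a log2 fold change of -0.74 ± 0.12 (SE, adjusted p = 0.000583). Eci2 and the reductase gene Decr1 were not called, at -0.27 (-0.53 to -0.01) and -0.45 (-0.84 to -0.06), although their control and non-transferred libraries did not overlap either. All 3 genes of the electron transfer flavoprotein system fell. Etfb, its beta subunit, changed by -0.60 ± 0.14 (SE, adjusted p = 0.00511), Etfa, its alpha subunit, by -0.46 ± 0.14 (SE, adjusted p = 0.0189), and Etfdh, the oxidoreductase that hands the electrons to ubiquinone, by -0.44 ± 0.13 (SE, adjusted p = 0.0156). The calls of Etfa and Etfdh were the least firm of the mitochondrial falls, and both were lost without control replicate 3, Etfa also without non-transferred replicate 3 and Etfdh without non-transferred replicate 4.

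**Figure D2:**
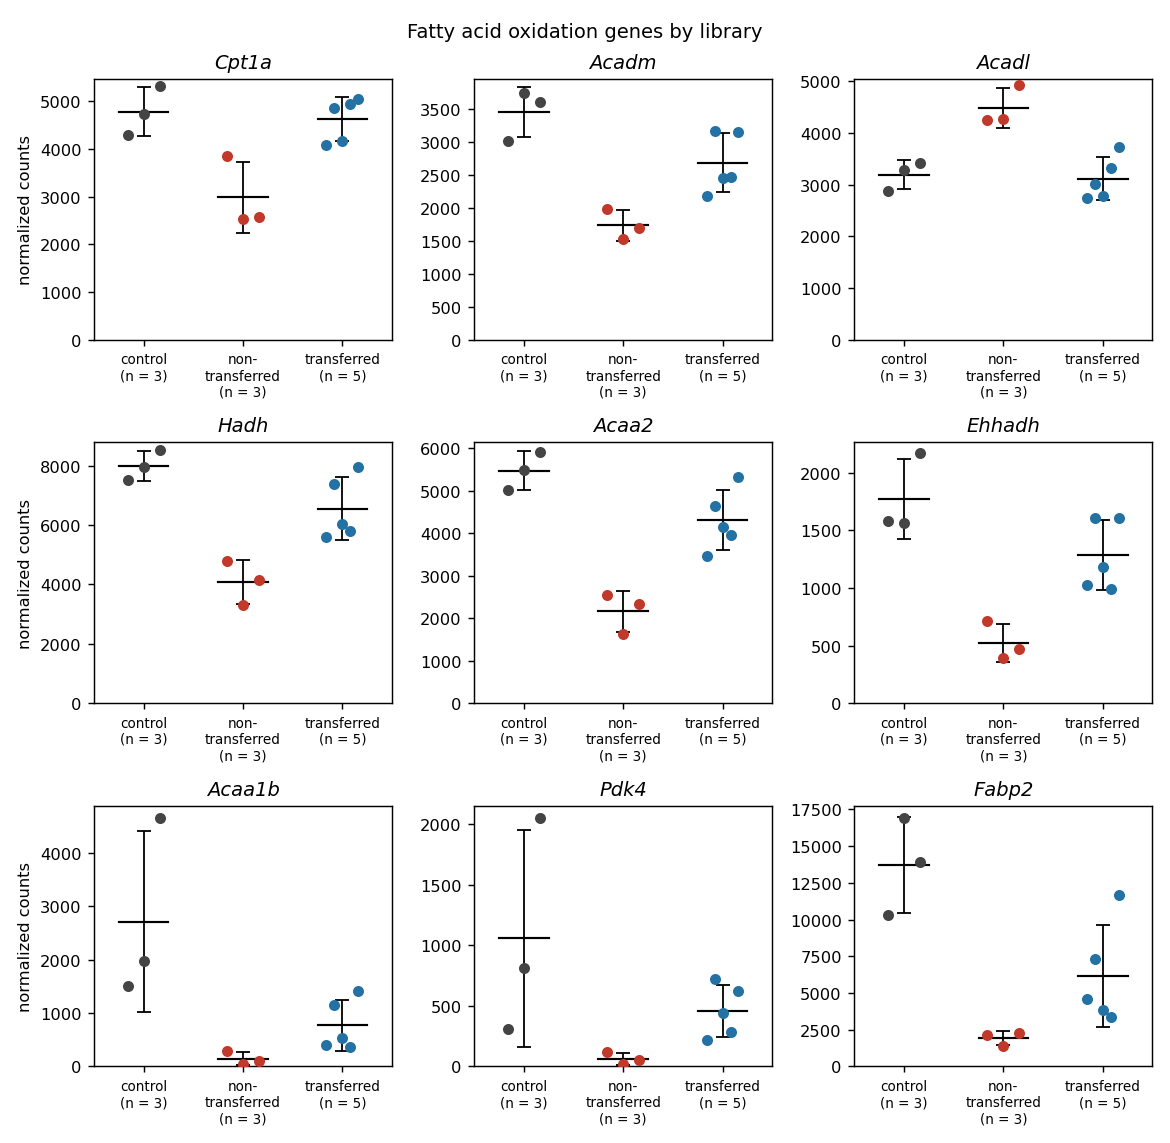
Normalized counts (y axis, from 0) of 9 members in each library of the control, non-transferred and transferred groups, with the mean and SD as bars. Acadl is higher in the non-transferred group, at 4250 to 4929 against 2874 to 3410 in control, and the other 8 genes are lower there.

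In peroxisomes, 5 of 7 members fell. Ehhadh (ENSMUSG00000022853, chromosome 16 from 21580036 to 21606563), the bifunctional enzyme that hydrates and dehydrogenates straight chains, had 1581, 1567 and 2174 normalized counts in the control libraries, 709.7, 391 and 468 in the non-transferred and 1029.5, 1606, 1184, 995 and 1605 in the transferred libraries, a log2 fold change of -1.79 ± 0.25 (SE, adjusted p = 0.000212). Hsd17b4, the second peroxisomal bifunctional enzyme, which also takes branched chains and bile acid precursors, had 2722, 2916 and 3335 normalized counts in the control libraries, 1746, 1357 and 1364 in the non-transferred and 2016, 2496, 2117, 1929 and 3095 in the transferred libraries, and its log2 fold change was -1.01 ± 0.17 (SE, adjusted p = 0.000768). In each of these genes the highest non-transferred library was below the lowest control library.

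Acaa1b (ENSMUSG00000010651, chromosome 9 from 118977091 to 118986161), a peroxisomal thiolase, had the largest fall of all members, with 1506, 1972 and 4655 normalized counts in the control libraries, 284, 47.5 and 107 in the non-transferred and 399, 1148, 538, 366 and 1411 in the transferred libraries. The log2 fold change was -4.39 ± 0.68 (SE, adjusted p = 0.000406), and it ranged from -5.05 without non-transferred replicate 1 to -3.77 without non-transferred replicate 3. Control replicate 3 alone had more than the other two control libraries together. Of the stretches of 50 bases in its transcript, 35.5% also occur in transcripts of its neighbour Acaa1a, so reads of the pair can be misassigned. Acaa1a itself had 3701, 4257 and 4207 normalized counts in the control libraries, 2298, 1897 and 2456 in the non-transferred and 2669.7, 3349, 3184, 2781 and 3358 in the transferred libraries, with a log2 fold change of -0.88 ± 0.13 (SE, adjusted p = 0.000268).

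Scp2, which encodes a peroxisomal thiolase and a sterol carrier protein, had 3705, 4009 and 4144 normalized counts in the control libraries, 2777, 2350.2 and 2781 in the non-transferred and 2818, 3315, 2789.9, 2767 and 3604 in the transferred libraries. Decr2, the peroxisomal reductase for unsaturated chains, had 977, 1005 and 1206 normalized counts in the control libraries, 758, 653 and 721 in the non-transferred and 889, 991, 837, 849 and 1063 in the transferred libraries. Their log2 fold changes were -0.59 ± 0.12 (SE, adjusted p = 0.00239) and -0.58 ± 0.12 (SE, adjusted p = 0.0026), and neither gene's control and non-transferred libraries overlapped. The remaining pair of peroxisomal members were not called. Pex11a, a factor of peroxisome division, was at 0.13 (-0.26 to 0.52), with control and non-transferred libraries that overlapped. Slc27a2, which imports and activates very long chains, had 158, 335 and 602 normalized counts in the control libraries, 174, 221 and 90.9 in the non-transferred and 86.7, 139.8, 94.3, 144 and 435 in the transferred libraries, and with a log2 fold change of -1.06 its interval of -2.38 to 0.26 was the widest among members that were not called.

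Mitochondrial and peroxisomal members were set against each other by their medians. In non-transferred against control colon 13 of 20 mitochondrial members fell with a median log2 fold change of -0.60 over the 20, and 5 of 7 peroxisomal members fell with a median of -1.01 over the 7. The median log2 ratio to the control mean of the mitochondrial members was -0.45, -0.75 and -0.49 in the non-transferred libraries and -0.32, -0.10, -0.23, -0.29 and 0.10 in the transferred libraries. For the peroxisomal members it was -0.77, -0.75 and -1.13 and -0.56, -0.25, -0.50, -0.63 and 0.01. The mitochondrial median was above the peroxisomal one by 0.32 in non-transferred replicate 1 and by 0.63 in replicate 4, while in replicate 3 both stood at -0.75. The difference of the medians over the group, 0.41, was 0.11 when control replicate 3 was left out and 0.065 when non-transferred replicate 4 was, as the peroxisomal median moved to -0.60 and -0.69. It was not tested, since the members were chosen with results known, and with 7 peroxisomal genes it rests on few values. Among the further genes of these pathways, given below, the order was the other way. Their median was -0.49 over 20 mitochondrial genes and -0.32 over 34 peroxisomal genes, which include many Pex genes.

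Some markers of cell types moved with these genes. Of 10 markers of absorptive colonocytes, which line the surface of the colon, 7 fell and 3 rose in non-transferred against control colon (median log2 fold change -1.82), and their summed level was 376266 to 624959 normalized counts in control, 77771 to 151180 in non-transferred and 207356 to 633476 in transferred libraries. The log2 fold changes of these 10 markers ran from -4.77 to 1.71, so the list went both ways. The water channel gene Aqp8, among the 7 that fell, had 10629.9, 18489.9 and 41272 normalized counts in the control libraries, 2943, 165 and 826 in the non-transferred and 2538, 12939, 1765, 3697 and 33602 in the transferred libraries. Of 13 general markers of epithelium, 3 rose and 1 fell (median 0.19), with sums of 329783 to 405011, 383948 to 493082 and 340539 to 472766. Among all genes tested 22.7% rose and 22.9% fell, and the 23.1% of epithelium markers that rose were near that share. All 11 fat cell markers tested fell (median -2.99), with sums of 7789 to 21125, 2150 to 2951 and 7584 to 13590, and Plin1, a lipid droplet gene of these cells, had no read in non-transferred replicate 1. Adipoq, the adiponectin gene that defines fat cells, had 1.96, 39.7 and 105 normalized counts in the non-transferred libraries. All 12 smooth muscle markers fell as well (median -2.71), with sums of 271919 to 339672, 38951 to 56886 and 118885 to 190644. Reads of genes on the mitochondrial genome made up 4.63% to 6.73% of reads in control, 2.55% to 3.44% in non-transferred and 3.84% to 4.82% in transferred libraries. In the other direction, all 7 neutrophil markers (median 5.57) and all 8 T cell markers (median 2.29) rose, and so did 6 of 8 macrophage markers. The part of these shifts in the result on fatty acid oxidation was not tested.

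**Figure D3:**
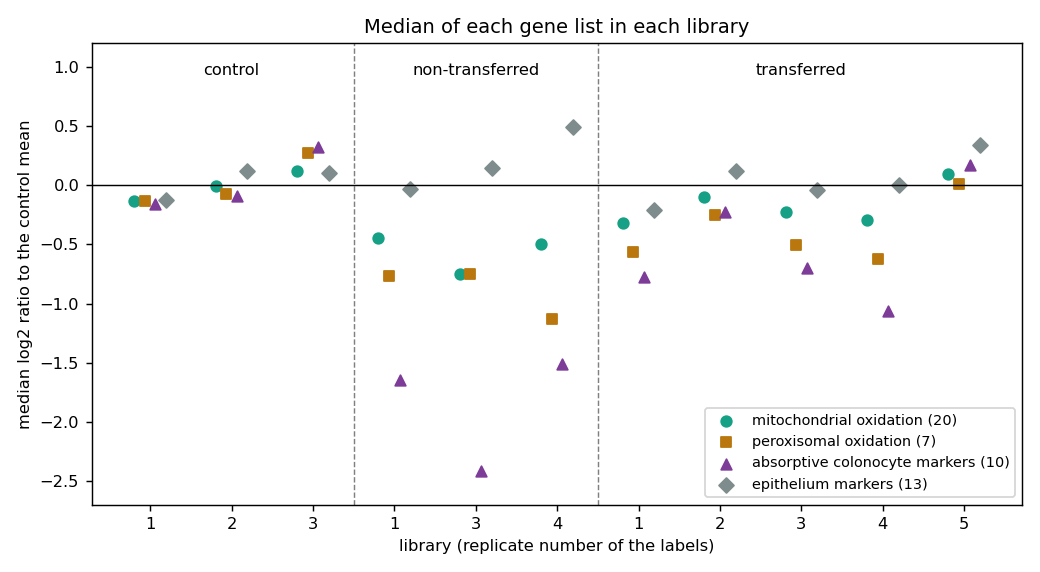
Median log2 ratio to the control mean (y axis) in each of the 11 libraries (x axis, replicate numbers of the labels) for the 20 mitochondrial and 7 peroxisomal members and for the markers of absorptive colonocytes and of epithelium. In the non-transferred libraries the mitochondrial medians lie at -0.75 to -0.45 and the colonocyte medians at -2.42 to -1.51, while the epithelium medians lie at -0.03 to 0.49.

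Among the regulators, Ppargc1a and Pdk4 fell. Pdk4 (ENSMUSG00000019577, chromosome 6 from 5483097 to 5496339), the kinase that shuts off pyruvate dehydrogenase when fat is burned and a known target of PPARs, had 307, 809 and 2051 normalized counts in the control libraries, 117, 19.4 and 56.9 in the non-transferred and 218, 722, 438, 286 and 619 in the transferred libraries. Its log2 fold change was -3.95 ± 0.73 (SE, adjusted p = 0.00122), and the control libraries spanned a wide range, so that the value was -3.27 without control replicate 3 or without non-transferred replicate 3, -4.63 without control replicate 1 and -4.54 without non-transferred replicate 1. Ppargc1a had 170.5, 140.2 and 203 normalized counts in the control libraries, 118, 75.6 and 63.5 in the non-transferred and 149.7, 141, 142, 136 and 134 in the transferred libraries, a log2 fold change of -1.02 ± 0.22 (SE, adjusted p = 0.00276). Ppara, with 110.2, 141 and 99.2 normalized counts in the control libraries, 106, 45.5 and 52.6 in the non-transferred and 67.5, 163, 95.3, 102 and 139 in the transferred libraries, was not called, at a log2 fold change of -0.86 ± 0.36 (SE, adjusted p = 0.0685), and non-transferred replicate 1 overlapped with the control libraries.

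Other nuclear receptors, kinases and targets of this system moved both ways. Of 17 tested, 2 rose (11.8%) and 7 fell (41.2%), against 22.7% and 22.9% of all genes, with a median of -0.19. Those with the smallest adjusted p were Pdk2, a second pyruvate dehydrogenase kinase, at -2.24 ± 0.24 (SE, adjusted p = 5.34e-05), Esrrg, an estrogen-related receptor measured on at most 30.9 normalized counts, at -3.24 ± 0.50 (SE, adjusted p = 0.000422), and Sirt3, a mitochondrial deacylase, at -0.83 ± 0.15 (SE, adjusted p = 0.000981).

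Among the ketone body genes the member Bdh1 fell. Bdh1, which interconverts acetoacetate and hydroxybutyrate, had 4702, 5356 and 5748 normalized counts in the control libraries, 3445, 3037 and 3276 in the non-transferred and 3890.0, 4940.4, 4443, 3917 and 6034 in the transferred libraries, a log2 fold change of -0.69 ± 0.16 (SE, adjusted p = 0.00395). Beyond the 33 members, Slc16a3, a transporter best known for lactate export, rose from 123, 116 and 378 to 1456, 2401 and 2023, a log2 fold change of 3.44 ± 0.43 (SE, adjusted p = 0.000126). For 2 more genes, given for the steps they cover and chosen after their values were seen, the log2 fold change was -1.53 ± 0.47 (SE, adjusted p = 0.0204) for Slc16a1, a transporter of butyrate, lactate and ketone bodies, and 0.00 ± 0.12 (SE, adjusted p = 0.995) for Oxct1, which starts the use of ketone bodies.

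**Figure D4:**
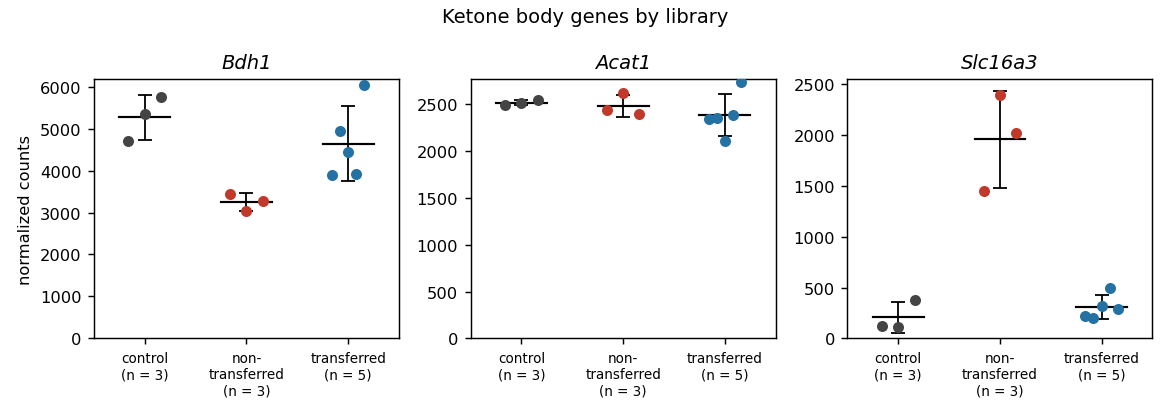
Normalized counts (y axis, from 0) of Bdh1, Acat1 and the transporter gene Slc16a3 in each library, with the mean and SD of each group as bars. Slc16a3 lies at 1456 to 2401 in the non-transferred and 116 to 378 in the control libraries, whereas Acat1 lies between 2109 and 2736 in all 11 libraries.

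Of the fatty acid binding proteins, Fabp2 (ENSMUSG00000023057, chromosome 3 from 122688721 to 122693155), the intestinal form, had 10342, 16889.5 and 13905 normalized counts in the control libraries, 2148, 1397 and 2273 in the non-transferred and 4558, 7346, 3829, 3364 and 11678 in the transferred libraries. It fell with a log2 fold change of -2.82 ± 0.40 (SE, adjusted p = 0.000255), and the highest non-transferred library was far below the lowest control library. Fabp1, the liver form, had at most 12.1 normalized counts over all 11 libraries, and no difference was detectable at this depth.

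In non-transferred against control colon 22.9% of all genes tested fell and 22.7% rose. In the wider pathway the same comparison gave 1 rise and 14 falls among 20 further genes of mitochondrial oxidation (median -0.49). It gave 2 rises and 16 falls among 34 further peroxisomal genes (median -0.32). By the smallest adjusted p the former were led by Acss1, a mitochondrial acetyl-CoA synthetase, at -1.59 ± 0.16 (SE, adjusted p = 3.59e-05), Acad12, a further dehydrogenase, at -1.51 ± 0.22 (SE, adjusted p = 0.000247) and Cpt1c, the brain form of the transferase, at -1.20 ± 0.18 (SE, adjusted p = 0.000288). Cpt1c was listed by its gene family, and its value does not bear on mitochondrial oxidation by itself. Among the latter Cat, the peroxisomal catalase, had 1896, 1989 and 2493 normalized counts in the control libraries, 1121, 823 and 898 in the non-transferred and 1773, 1707, 1747, 1459 and 1918 in the transferred libraries, a log2 fold change of -1.17 ± 0.14 (SE, adjusted p = 0.000107). Ech1, an auxiliary isomerase, changed by -1.11 ± 0.15 (SE, adjusted p = 0.000172). Of 12 genes of fatty acid uptake and activation, 2 rose and 7 fell (median -1.07). The acyl-CoA synthetase genes Acsl5 and Acsl4 were higher, at 0.80 ± 0.12 (SE, adjusted p = 0.000411) and 0.76 ± 0.13 (SE, adjusted p = 0.000689), and Acsl3 was lower, at -2.15 ± 0.35 (SE, adjusted p = 0.000571). Of 11 genes of fatty acid synthesis, 1 rose and 2 fell (median 0.00), namely the desaturase gene Scd2 at 1.01 ± 0.13 (SE, adjusted p = 0.000138), and the carboxylase gene Acacb and the desaturase gene Scd1 at -0.99 ± 0.17 (SE, adjusted p = 0.000698) and -2.41 ± 0.60 (SE, adjusted p = 0.00654).

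After CD4 T cell therapy most members stood higher than in non-transferred colon. In transferred against non-transferred colon 18 of 32 members rose (56.2%) and 1, Acadl, fell, against 17.0% and 14.2% of all genes tested. The median log2 fold change was 0.43 over the members and -0.02 over all genes. Of the mitochondrial members 10 of 20 rose and of the peroxisomal members 4 of 7, with medians of 0.37 and 0.38. With Pex11a and Slc27a2 left out, so that only the enzymes of the peroxisomal spiral remained, the peroxisomal median was 0.63, and the mitochondrial median was then lower than it (difference -0.26). Without non-transferred replicate 3, 9 members rose instead of 18, and 1867 of all 16781 genes instead of 2860. This comparison shares the 3 non-transferred libraries with the one above, so a direction opposite to that above is no independent result, and the values of each are given side by side.

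The mitochondrial genes that rose were Cpt1a, by 0.65 on the log2 scale (adjusted p = 0.006), Acads, Acadm, Acadvl, Hadh, Hadha, Hadhb, Acaa2, Eci1 and Etfb. Acaa2 had the largest rise of these, with a log2 fold change of 1.00 ± 0.16 (SE, adjusted p = 0.0012) after -1.36 in non-transferred against control colon, and Acadvl (0.39) and Etfb (0.38) the smallest. The calls of Hadhb and Etfb were lost in 14 and 10 of 23 alternatives. Acadl went the other way, with a log2 fold change of -0.53 ± 0.11 (SE, adjusted p = 0.00544), and its 5 transferred libraries all lay below the 3 non-transferred libraries.

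Crat, Etfa and Etfdh, which had fallen, did not pass the test here, at 0.36 (0.03 to 0.69), 0.30 (0.03 to 0.58) and 0.31 (0.06 to 0.56). Of the members not called in the first comparison, Cpt2, Slc25a20, Echs1, Acat1, Eci2 and Decr1 were not called in the second either, with log2 fold changes from -0.06 (Acat1) to 0.35 (Decr1).

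Among peroxisomal members Ehhadh rose by 1.31 (adjusted p = 0.00158), Hsd17b4 by 0.63 (adjusted p = 0.0102) and Decr2 by 0.38 (adjusted p = 0.0211) on the log2 scale. For Acaa1b the log2 fold change was 2.54 ± 0.61 (SE, adjusted p = 0.00909), or 3.19 without non-transferred replicate 1, and the call was lost at 1.92 without non-transferred replicate 3. Scp2 was not called, at 0.21 with a 95% interval of -0.03 to 0.45, and neither were Pex11a at -0.02 and Slc27a2 at -0.03.

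Pdk4 and Ppargc1a rose, with log2 fold changes of 3.00 ± 0.65 (SE, adjusted p = 0.00565) and 0.75 ± 0.19 (SE, adjusted p = 0.0128). The Pdk4 value was 2.33 without non-transferred replicate 3 and 3.60 without non-transferred replicate 1. Ppara was at 0.77 ± 0.32 (SE, adjusted p = 0.0884). Bdh1 rose by 0.50 (adjusted p = 0.0199), while Slc16a3 fell to 223, 197, 317, 500.2 and 290.2 normalized counts, a log2 fold change of -2.73 ± 0.39 (SE, adjusted p = 0.000658). Fabp2 rose by 1.54 (adjusted p = 0.00841), although its 5 transferred libraries were far apart, and those of replicates 2 and 5 were highest.

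The same libraries, transferred replicates 2 and 5, were also the highest of the group for Acadm, Hadh, Acaa1b and Bdh1 and had the highest Aqp8 of the group. Their median log2 ratio to the control mean over the 10 markers of absorptive colonocytes, -0.23 and 0.17, was the highest of the group too. Of these 10 markers 6 rose and 0 fell in transferred against non-transferred colon, where 17.0% of all genes tested rose. All 11 fat cell and all 12 smooth muscle markers rose as well. Their part in the rise of the members was not tested.

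The wider pathway lists gave these counts in the same comparison, where 17.0% of all genes tested rose and 14.2% fell. Of the further genes of mitochondrial oxidation 11 of 20 rose (55%) and 1 fell. Of the further peroxisomal genes 7 of 34 rose (20.6%) and 2 fell, near the share of rises among all genes. Of the genes of fatty acid uptake and activation 6 of 12 rose (50%) and 2 fell. Of the nuclear receptors and targets 5 of 17 rose (29.4%) and 1 fell. Of those of fatty acid synthesis 2 of 11 rose (18.2%) and 1 fell, again near the share among all genes. Acss1, Cat and Ech1 rose, with log2 fold changes of 1.19, 0.87 and 0.93 (adjusted p = 0.00027, 0.000796 and 0.000687).

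Against control colon, no member was called in the transferred group by limma, where 6 members had an unadjusted p under 0.05. Among all genes tested, limma called 0.453% lower and 1.14% higher. edgeR called no member either (5 had an unadjusted p under 0.05), against 0.387% of all genes that it called lower, and DESeq2 called 2 members lower, Fabp2 and Scp2, against 2.75% of all genes. The median log2 fold change was -0.20 over the members and -0.01 over all genes, and 31 of 32 members were on the lower side of 0. For mitochondrial members the median was -0.15 and for peroxisomal members -0.38.

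A p that misses the threshold does not show that a member was back at its control level. For Cpt1a the log2 fold change was -0.05 with a 95% interval of -0.36 to 0.27, and for Acadl -0.04 with -0.29 to 0.21. The 6 members with an unadjusted p under 0.05 were Acadm at -0.37 (-0.69 to -0.06), Hsd17b4 at -0.38 (-0.72 to -0.04), Acaa2 at -0.36, Scp2, Acaa1b and Fabp2. Only the peroxisomal genes Scp2 and Acaa1b, 2 of 32 members, had no transferred library as high as the lowest control library. That is near the share of all genes with this pattern, 5.49%. Their log2 fold changes were -0.38 (adjusted p = 0.0983) and -1.86 (adjusted p = 0.135). Fabp2, at -1.29 (adjusted p = 0.0923), reached the control range in transferred replicate 5 alone. Without that replicate, 3 members were called lower than control, namely Fabp2, Hsd17b4 and Scp2, against 289 of all 16781 genes. Of the wider lists a single gene was called, the bile acid receptor gene Nr1h4, with a log2 fold change of 0.82 ± 0.18 (SE, adjusted p = 0.0483). This comparison shares the control libraries with the first and the transferred libraries with the second.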

How the data were processed

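Whole colon RNA was sequenced in 11 libraries, on DNBSEQ or NovaSeq machines that are not named per library, and grouped by genotype and treatment labels. The authors aligned reads to GRCm39. HISAT2 2.2.1, SAMtools 1.13, HTSeq 1.99.2 and DESeq2 1.40.2 stand in the submitters' processing notes. The paper states that stranded mRNA was sequenced. No annotation release and no strand setting of the counter is given in the sources used here. The deposited values are a signal, namely counts divided by 1 factor per library by the authors, in which 1 read is worth 0.913 to 1.10, and 100% of values are whole reads within 0.05. Intervals given for folds cover the spread between libraries. Of 22836 identifiers, 22657 (99.2%) were named with GENCODE vM39.

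All 11 libraries entered 1 limma 3.58.1 fit (R 4.3.3) with a variance trend, on log2(value + 1) of 16781 genes with a mean of at least 10, with Benjamini-Hochberg adjustment and a threshold of 0.05. edgeR 4.0.16 and DESeq2 1.42.0 were run as alternatives on the recovered whole reads, beside other pseudocounts, filters and scalings, a replicate block, the study's threshold and leaving out each library. The scripts were tested on simulated data. Lengths, coordinates and promoter sequence came from canonical transcripts of GENCODE vM39 on GRCm39. All 33 members are named, and up to 3 genes per further pathway list, by the smallest adjusted p in non-transferred against control colon. The members and lists were chosen with earlier results of these data known. Some results on ketone body genes are not reported here.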

Additional observations from a re-analysis of the deposited data

Results flagged for a closer look

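Among the 5 transferred libraries, the highest or lowest value of each of the 33 members was compared with the rest by Dixon's ratio, the gap to the nearest library over the whole range, with a critical value of 0.710. It was passed by 3 members, all through a high value in transferred replicate 5, and chance alone is expected to flag about 1 in 20 genes. Crat was at 1763 normalized counts there (ratio 0.776). Acads, the short-chain acyl-CoA dehydrogenase gene, was at 8609 (ratio 0.748), above all 3 control libraries. Slc27a2, the importer of very long chains, was at 435 (ratio 0.836), while the other 4 transferred libraries lay at 86.7 to 144. The same library had the most Apoa1 and Apoa4 of all 11, and their part in these values was not tested.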

How the results depend on the processing

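Of 42 member results called in either comparison with the non-transferred group, 25 stayed called in all 23 alternatives (17 of 23 against control and 8 of 19 against transferred), 17 were lost in at least 1, and no direction turned. The threshold used in the study asks for a change of over 0.6 on the log2 scale at an unadjusted p under 0.05. By it, 18 members fell and 0 rose in non-transferred against control colon, where 3387 of all 16781 genes fell and 2616 rose. In transferred against non-transferred colon 12 members rose and 0 fell, against 2632 and 1391 of all genes. In transferred against control colon 2 members (Acaa1b and Fabp2) were lower, against 713 of all genes. In transferred against control colon DESeq2 called 2 members lower (461 of all genes), and leaving out 1 library gave 0 to 3 (0 to 289). Leaving out 1 library gave 20 to 24 falls in non-transferred against control colon (3134 to 3991 of all genes). It gave 9 to 19 rises in transferred against non-transferred colon (1867 to 2880 of all genes). The peroxisomal median in non-transferred against control colon then ran from -1.13 to -0.60, and the difference between the mitochondrial and peroxisomal medians from 0.065 to 0.52. With the peroxisomal list held to its chain-shortening enzymes, the peroxisomal median in transferred against non-transferred colon was 0.63 and that difference was -0.26. The replicate numbers shared by groups were not used as a pairing in the main fit, and the labels name none. Deviations of same-numbered libraries had correlations of 0.05 and 0.06 between control and non-transferred. They were -0.03 to 0.10 between non-transferred and transferred and -0.10 to 0.39 between control and transferred. These values cannot decide whether the numbers mark a pairing. With the number as a replicate block, 23 members fell and 1 rose in non-transferred against control colon (3498 and 3377 of all genes). In transferred against non-transferred colon 13 rose and 1 fell (2774 and 2265 of all genes). In transferred against control colon 2 (Fabp2 and Scp2) were lower (313 of all genes). The cause of these shifts was not tested. Fabp1, left out by the filter on low values, was not called in any comparison when that filter was dropped.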

Other observations

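Genes of fatty acid activation and synthesis that rose in non-transferred colon stood beside relatives that fell. Acsl3, an acyl-CoA synthetase, had 4889.7, 9740.0 and 6092 normalized counts in the control libraries, 1872, 1472 and 1214 in the non-transferred and 2358, 4437, 2158, 1981 and 4475 in the transferred libraries. Acsl5, another of these enzymes, had 1981, 1937 and 1955 normalized counts in the control libraries, 3009, 3642 and 3589.5 in the non-transferred and 1989, 1860.1, 1816, 2314 and 2409 in the transferred libraries. All non-transferred libraries were thus below all control libraries for Acsl3 and above them for Acsl5. Of the stearoyl-CoA desaturases, Scd2 had 9608, 10669.5 and 10408 normalized counts in the control libraries, 19633, 20392 and 21564 in the non-transferred and 10762, 11916, 10902, 13768 and 14146 in the transferred libraries, and Scd1 had 3874, 7505 and 15350.3 normalized counts in the control libraries, 786, 1059.8 and 3562 in the non-transferred and 11188, 9504, 6316, 4791 and 4317 in the transferred libraries, again in opposite directions and without overlap between control and non-transferred libraries. Acacb, the acetyl-CoA carboxylase whose product malonyl-CoA restrains CPT1, had 1248, 1052 and 1622 normalized counts in the control libraries, 805, 635 and 534 in the non-transferred and 1384, 1332, 1373, 1451 and 1253 in the transferred libraries.

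Of 10 markers of enteric neurons and glia, 9 fell in non-transferred against control colon (median log2 fold change -2.28). Of 7 goblet cell markers 1 rose and 1 fell, of 7 fibroblast markers 2 fell, of 4 skeletal muscle markers 1 rose and 2 fell, and of 7 small intestinal markers 2 fell. Among all genes tested 22.9% fell and 22.7% rose. The falls among fibroblast and small intestinal markers (28.6% each) were near that share. Of 5 listed markers of distal colon position only Hoxa13 was measured. It fell (log2 fold change -2.98), and it rose in transferred against non-transferred colon (2.35). It had 9.92 to 45.2 normalized counts in control, 0.969 to 9.79 in non-transferred and 4.38 to 26.7 in transferred libraries. Hoxa13 also differed within groups. Its log2 ratio to the control mean was -1.36 in control replicate 3 against 0.72 and 0.64 in replicates 1 and 2. In transferred replicate 5 it was -2.38 against -0.41 to -0.02 in the rest of that group. The part of sampling position in the results was not tested. In transferred against control colon 4 of 8 T cell markers and 1 of 7 neutrophil markers were higher, and 8 of 12 smooth muscle markers were lower. Among all genes tested 1.14% were higher and 0.453% lower there.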
